A study of Mus musculus with 20 samples.

Results

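The immediate early and feedback genes described here were 10 genes chosen by name (Fos, Jun, Junb, Egr1, Ier2, Ier3, Dusp1, Btg2, Zfp36 and Atf3) of the 18193 genes that the arrays name by a probe set with 1 gene symbol. Their RNA was measured in the livers of 20 male mice, 1 Affymetrix array per mouse, in 4 groups of 5: MCAD-/- given LPS, MCAD-/- given vehicle, wild type given LPS and wild type given vehicle. MCAD-/- mice are deficient in medium-chain acyl-CoA dehydrogenase, encoded by Acadm, which carries out the opening step of mitochondrial beta-oxidation of medium-chain fatty acids. LPS is lipopolysaccharide, a component of bacterial cell walls that provokes inflammation. All mice carried a mixed BL6/SV129 background, were 50 to 60 days old, and were fasted for 12 h after an injection of vehicle or of LPS at 100 µg per 20 g body weight. The series title concerns hepatic carbohydrate handling in MCAD deficiency when metabolic demand is high. The labels state neither whether the 2 genotypes were littermates nor a group that was fed.

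Immediate early genes are transcribed within minutes of a stimulus from transcription factors that already sit in the cell, with no need for new protein. Their RNAs are mostly short-lived, and several of their products switch the response off again: Dusp1 removes phosphate from MAP kinases, Zfp36 (tristetraprolin) marks AU-rich RNAs for decay, and Btg2 recruits the CCR4-NOT deadenylase and restrains proliferation. The other members are mainly transcription factors: Fos, Jun, Junb and Atf3 are basic leucine zipper subunits of AP-1 and ATF dimers, and Egr1 is a zinc finger factor. Ier2 and Ier3 encode small proteins, of which Ier3 acts on cell survival. In liver these genes respond to injury, partial hepatectomy, cytokines, and hormones of fasting such as glucagon and glucocorticoids.

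Values are the authors' GCRMA intensities in linear units, with 1 probe set per gene (the brightest where there were several), and differences are on the log2 scale from a limma model of all 20 arrays. Genes entered the test when at least 5 arrays read more than 16 units. That held for 8774 genes and for 8 of the 10 members, while Fos and Atf3 did not pass and were not tested. Ier3 passed through the LPS groups alone. All adjusted p-values were computed over the 8774 genes by the Benjamini-Hochberg method, and a gene is said to have risen or fallen where its adjusted p was under 0.05.

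Acadm followed the genotype labels, at 14.3 to 218 units in MCAD-/- mice with LPS against 1450 to 2375 units in wild type mice with LPS, while the vehicle groups read 9.03 to 80.2 units in MCAD-/- against 3106 to 4022 units in wild type. Hepatocyte markers were at high level in every mouse, with summed levels of 8 markers of 85100 to 116100 units. Between 30.27% and 32.36% of probe sets exceeded 16 units per array. The ratio of the actin probe sets from the 3′ and 5′ ends of the transcript, a measure of RNA integrity, was highest in wild type LPS mouse 4 (3.69 on the log2 scale) and wild type vehicle mouse 3 (3.18), and was 1.35 to 2.34 in the others.

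With LPS, 3 of the 8 tested members were higher in MCAD-/- than in wild type liver and 0 were lower: Btg2, Dusp1 and Zfp36, of which Zfp36 was near the threshold. In this comparison 20.6% of all tested genes passed, and 8.75% of all tested genes passed as higher. With vehicle, 1 member, Dusp1, was higher in MCAD-/- liver and 0 were lower, where 16.2% of tested genes passed and 9.81% passed as higher. LPS raised Jun, Junb, Egr1 and Btg2, 4 of the 7 members other than Ier3, in MCAD-/- liver and in wild type liver. Ier3 entered the test only through the LPS groups in which it was high, so its LPS difference is described and not counted here. For LPS, 65.7% of tested genes passed in MCAD-/- (38.1% as higher) and 64% in wild type (40% as higher). The members' 4 of 7 lay near the share that passed in either direction. Of all genes that passed for LPS in wild type 62.5% were higher, and 50.9% when each array was centred on its median, which shifted the median difference of all tested genes by -0.15 and called Dusp1 and Zfp36 lower as well. As the arrays measured whole liver, more cells of a type and more RNA per cell cannot be told apart.

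The promoters of the 3 members that differed between genotypes with LPS, and of Ier3, which had the largest LPS difference of the set, are shown to give the sequence context of these genes. Each is the 250 bases directly before the transcription start in RefSeq (GRCm38.p6), 5′ to 3′ on the strand of the gene. Such a promoter was searched for 8 of the 10 members. Those of Egr1 and Ier2 were not searched, so the motif counts say nothing of these genes. Capitals mark the cAMP response element (CRE, TGACGTCA, or its core TGACG), the CArG box bound by serum response factor, or the kappaB site. The Btg2 promoter lies on chr1:134079156-134079405 (minus strand), Dusp1 on chr17:26508473-26508722 (minus), Zfp36 on chr7:28379229-28379478 (minus) and Ier3 on chr17:35821463-35821712 (plus).
Btg2: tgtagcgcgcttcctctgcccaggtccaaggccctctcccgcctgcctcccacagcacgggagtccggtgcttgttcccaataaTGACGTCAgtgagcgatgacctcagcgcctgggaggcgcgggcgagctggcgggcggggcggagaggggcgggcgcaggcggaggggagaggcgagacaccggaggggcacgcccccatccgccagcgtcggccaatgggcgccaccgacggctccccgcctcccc
Dusp1: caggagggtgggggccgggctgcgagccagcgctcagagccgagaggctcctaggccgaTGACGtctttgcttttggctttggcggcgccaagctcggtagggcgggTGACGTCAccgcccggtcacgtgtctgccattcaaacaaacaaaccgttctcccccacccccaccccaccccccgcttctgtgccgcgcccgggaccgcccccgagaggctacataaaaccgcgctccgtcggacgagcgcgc
Zfp36: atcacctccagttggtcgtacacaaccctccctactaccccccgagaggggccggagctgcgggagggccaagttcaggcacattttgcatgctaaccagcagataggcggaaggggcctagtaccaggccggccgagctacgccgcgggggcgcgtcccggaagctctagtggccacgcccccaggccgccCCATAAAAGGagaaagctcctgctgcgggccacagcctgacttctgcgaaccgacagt
Ier3: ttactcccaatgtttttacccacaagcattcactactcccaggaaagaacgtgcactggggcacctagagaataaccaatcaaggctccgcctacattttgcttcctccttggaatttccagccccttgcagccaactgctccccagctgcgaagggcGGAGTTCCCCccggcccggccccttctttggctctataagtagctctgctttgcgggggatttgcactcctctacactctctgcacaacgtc
Both strands were searched. The full CRE was found in 2 of the 8 searched member promoters, Btg2 (positions -166 to -159 from the start) and Dusp1 (-143 to -136), and in 1.55% of 32817 promoter windows of the same length. Zfp36 held a CArG box at -58 to -49, which 1.47% of all windows held, and this box overlapped the last base of a GC box (GGGCGG on either strand). The kappaB site of Ier3 lay at -92 to -83, overlapping a GC box, and 7.25% of windows held such a site, Fos among them. The core TGACG, which the full CRE contains, was in 5 of the 8 and in 17.75% of all windows, the GC box in 7 of the 8 and 32.72%, and a TATA box (TATAAA) in 1 of the 8 (Fos) and 12.37%. An AP-1 site (TGAGTCA or its reverse complement TGACTCA) was in none of the 8 windows and in 4.46% of all windows, and a STAT site (TTCCNGGAA) in none of the 8 and 0.914% of all. These are matches of letters in a short window and say nothing of whether a factor was bound.

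**Figure D1:**
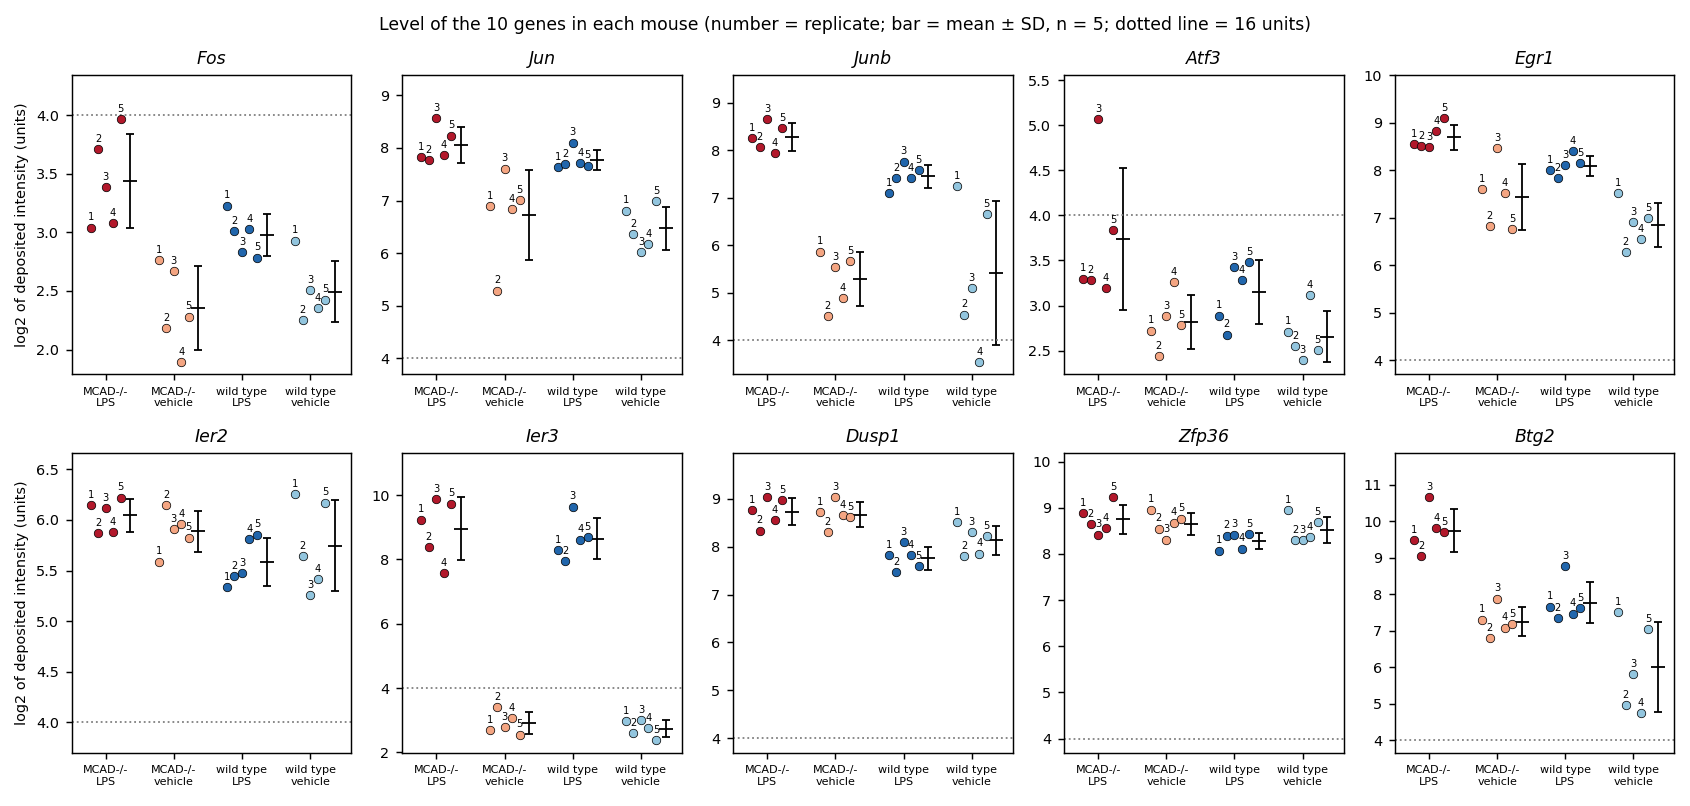
Level of the 10 genes in each of 20 mice on a log2 axis (deposited intensity units); points are mice, numbered within their group, bars are the group mean ± SD (n = 5), and the dotted line marks 16 units. Btg2 in MCAD-/- mice with LPS, at 534 to 1627 units, lies above all other groups, while Dusp1 in wild type mice with LPS, at 176.5 to 272.5 units, lies lowest of its 4 groups by median, and Fos stays under 16 units in all mice.

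Btg2 differed most between the genotypes among the members. With LPS it had 719, 534, 1627, 900.5 and 841 units in MCAD-/- mice 1 to 5, against 204, 164, 439, 178 and 196 units in wild type mice. With vehicle it had 159, 111, 236, 136.5 and 146 units in MCAD-/- mice, against 182, 31.3, 55.9, 26.7 and 132 units in wild type mice. With LPS every MCAD-/- mouse exceeded every wild type mouse, whereas with vehicle the groups overlapped, wild type mice 1 and 5 being high. The LPS-treated livers differed 3.92-fold (log2 difference 1.97 ± 0.44, SE, limma adjusted p = 0.00326). With vehicle the difference of 1.24 ± 0.44 (95% interval 0.32 to 2.16) did not pass (adjusted p = 0.0607), and it was 1.61 (adjusted p = 0.00979) without wild type vehicle mouse 1 and 1.5 (adjusted p = 0.0309) without mouse 5, in a range of 0.00979 to 0.178 over 31 other settings. LPS raised Btg2 5.64-fold in MCAD-/- (log2 difference 2.49 ± 0.44, adjusted p = 5.58e-05) and 3.4-fold in wild type (1.76 ± 0.44, adjusted p = 0.00166). By group mean, LPS-treated MCAD-/- mice came highest and vehicle-treated wild type mice lowest; between them, LPS-treated wild type mice (geometric mean 219.5 units) and vehicle-treated MCAD-/- mice (152.8 units) overlapped.

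The second Btg2 probe set gave the same pattern at its own scale. It had 118 to 496 units (median 202) in MCAD-/- mice with LPS, against 25.5 to 97.5 units (median 59.4) in wild type mice with LPS, with no overlap. With vehicle it had 18.2 to 44.0 units in MCAD-/- mice against 7.71 to 21.6 units in wild type mice, of which 1 exceeded 16 units. In a fit of every probe set on its own, its genotype difference was 1.97 with LPS (adjusted p = 0.002) and 1.23 with vehicle (adjusted p = 0.0489).

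Dusp1, the MAP kinase phosphatase, was higher in MCAD-/- liver after either injection, and the LPS difference did not pass in either genotype. With LPS it had 435, 323, 527, 376 and 500.4 units in MCAD-/- mice, against 226, 176.5, 272.5, 226 and 193 units in wild type mice, with no overlap. With vehicle it had 424, 317, 525.6, 404.5 and 391 units in MCAD-/- mice, against 364, 223, 316, 231 and 297 units in wild type mice, where the groups overlapped. The genotype difference was 1.97-fold with LPS (log2 difference 0.98 ± 0.17, adjusted p = 0.000336) and 1.45-fold with vehicle (0.53 ± 0.17, adjusted p = 0.0354). The call with vehicle ended without MCAD-/- vehicle mouse 1, 3 or 4 or wild type vehicle mouse 2, 4 or 5, with adjusted p-values of 0.0532 to 0.102, and when each array was centred on its median (adjusted p = 0.0588). The LPS difference was 0.06 ± 0.17 in MCAD-/- (95% interval -0.29 to 0.42, adjusted p = 0.751) and -0.38 ± 0.17 in wild type (-0.73 to -0.03, adjusted p = 0.0552). Centring each array turned the difference in MCAD-/- to -0.03, and the one in wild type passed in 10 of 31 other settings of the analysis, among them without wild type LPS mouse 3 (-0.46, adjusted p = 0.0273), in a range of 0.00596 to 0.156.

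Zfp36, which encodes tristetraprolin, showed the smallest difference of these 3 genes. With LPS it had 472, 402, 342.4, 377 and 603 units in MCAD-/- mice, against 269, 337, 342.3, 277 and 344 units in wild type mice. The values touched: the highest wild type mouse exceeded the lowest MCAD-/- mouse by under 2 units. The difference was 1.38-fold (log2 difference 0.46 ± 0.16, adjusted p = 0.0476), and it no longer passed in 16 of 31 other settings. The call ended without MCAD-/- LPS mouse 1, 2 or 5, wild type LPS mouse 1, 2, 3 or 4, or mouse 2, 4 or 5 of either vehicle group, with an adjusted p of up to 0.138 (without MCAD-/- LPS mouse 5). With vehicle, at 318 to 497 units in MCAD-/- against 314 to 491 units in wild type, the difference was 0.13 ± 0.16 (95% interval -0.20 to 0.47, adjusted p = 0.641). LPS differences were 0.10 ± 0.16 in MCAD-/- (adjusted p = 0.605) and -0.23 ± 0.16 in wild type (adjusted p = 0.217).

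**Figure D2:**
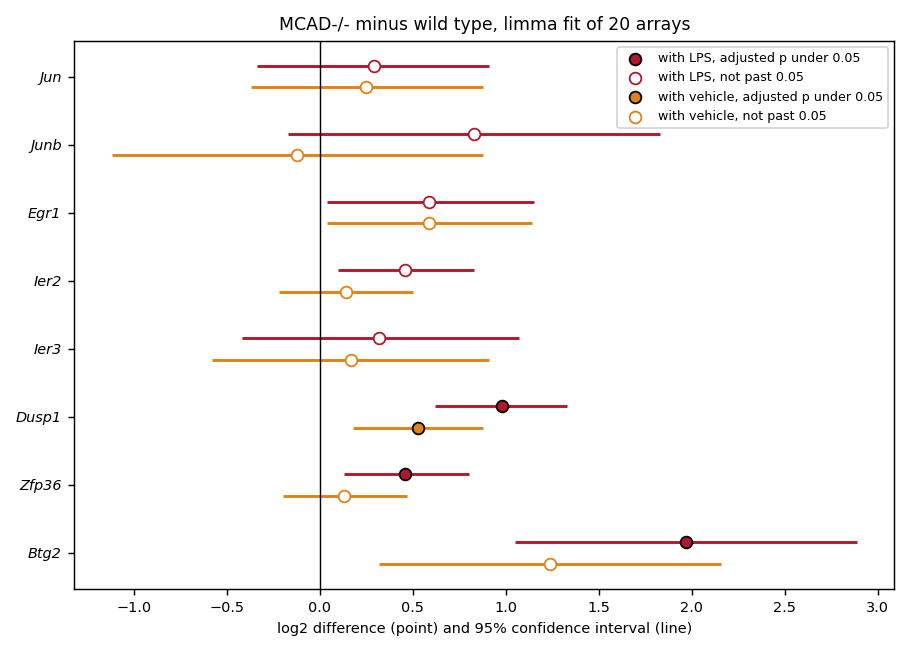
Difference between MCAD-/- and wild type liver in the 8 tested members, as log2 points with 95% confidence intervals from the limma model, with LPS (red) and with vehicle (orange); filled points have an adjusted p under 0.05. The points with LPS are all above 0, from 0.29 for Jun to 1.97 for Btg2, and the vehicle point of Junb lies at -0.12.

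Among the AP-1 subunits, Junb was the one whose LPS-treated groups did not overlap between genotypes. It had 306, 269, 406, 247 and 353 units in MCAD-/- mice with LPS, against 137, 170.4, 217, 170.5 and 193 units in wild type mice with LPS. With vehicle it had 58.4, 22.8, 46.5, 29.7 and 51.0 units in MCAD-/- mice, against 152, 23.3, 34.3, 11.7 and 101 units in wild type mice. The spread with vehicle was wide in wild type, where mice 1 and 5 were above every MCAD-/- mouse. The genotype difference with LPS of 0.83 ± 0.48 (95% interval -0.17 to 1.83) did not pass with the spread shared by all 4 groups (adjusted p = 0.24), but it did when the LPS groups were fitted alone (adjusted p = 0.00677), in a range of 0.00677 to 0.407 over 31 settings. LPS raised Junb 7.92-fold in MCAD-/- (log2 difference 2.99 ± 0.48, adjusted p = 1.92e-05) and 4.1-fold in wild type (2.04 ± 0.48, adjusted p = 0.001).

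Jun rose with LPS in both genotypes. With LPS it had 228, 217.5, 379, 233 and 301 units in MCAD-/- mice and 199, 208, 275, 211 and 203 units in wild type mice. Vehicle-treated livers had 118, 39.1, 195, 114 and 128 units in MCAD-/- mice and 112, 82.4, 65.2, 72.1 and 127 units in wild type mice. Every LPS-treated mouse exceeded every vehicle-treated mouse of its genotype. The rise was 2.51-fold in MCAD-/- (log2 difference 1.33 ± 0.30, adjusted p = 0.000664) and 2.45-fold in wild type (1.29 ± 0.30, adjusted p = 0.000882), and the second Jun probe set gave 0.83 and 0.81. The genotype differences of 0.29 ± 0.30 with LPS (95% interval -0.34 to 0.91, adjusted p = 0.544) and 0.25 ± 0.30 with vehicle (-0.37 to 0.88, adjusted p = 0.634) did not pass.

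Fos and Atf3 lay at the low end of the scale, under the limit of 16 units in nearly all mice. Fos had 8.24, 13.1, 10.5, 8.44 and 15.7 units in MCAD-/- mice with LPS against 6.89 to 9.37 units in wild type mice with LPS. The vehicle groups read 3.71 to 6.79 units in MCAD-/- and 4.76 to 7.62 units in wild type. Atf3 exceeded 16 units in 1 of 20 mice, MCAD-/- LPS mouse 3 with 33.7 units. The other MCAD-/- mice with LPS had 9.13 to 14.3 units, and those with vehicle 5.42 to 9.58 units. Wild type mice had 6.40 to 11.1 units with LPS and 5.25 to 8.65 units with vehicle. No fold is given for either gene.

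Egr1, a zinc finger factor induced through MAP kinases and serum response factor, rose with LPS and was not called between genotypes. With LPS it had 376, 362, 357, 454.5 and 544 units in MCAD-/- mice, against 255, 227, 276, 337.5 and 284 units in wild type mice, with no overlap. Vehicle-treated livers had 195, 113, 353, 183 and 108 units in MCAD-/- mice, against 183, 77.4, 119.7, 93.0 and 127 units in wild type mice, with MCAD-/- mouse 3 above the rest. The genotype difference was 0.59 ± 0.26 with LPS (95% interval 0.04 to 1.15, adjusted p = 0.12, and 0.0216 to 0.248 over 31 other settings) and 0.59 ± 0.26 with vehicle (0.04 to 1.14, adjusted p = 0.142). LPS raised it 2.39-fold in MCAD-/- (log2 difference 1.26 ± 0.26, adjusted p = 0.000349) and 2.38-fold in wild type (1.25 ± 0.26, adjusted p = 0.000377).

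Ier3, a small protein induced by NF-kappaB and stress signals, was low without LPS and bright with it. It had 603, 332, 944, 189.7 and 852 units in MCAD-/- mice with LPS, against 5.85 to 10.6 units in MCAD-/- mice with vehicle. In wild type mice it had 313, 245, 799, 391 and 415 units with LPS, against 5.18 to 7.98 units with vehicle. Since all vehicle values lay under 16 units, the LPS difference is a bound: at least 31.1-fold in MCAD-/- and at least 24.9-fold in wild type, taken against 16 units. No p is given for it, since the filter on low values had already required Ier3 to be bright in these groups. Between genotypes the LPS groups overlapped, with a difference of 0.32 ± 0.36 (95% interval -0.42 to 1.07, adjusted p = 0.574).

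Ier2, which encodes a small nuclear protein, did not pass in any comparison. It had 71.0, 58.6, 69.6, 58.8 and 74.6 units in MCAD-/- mice with LPS, against 40.4, 43.6, 44.5, 56.1 and 57.9 units in wild type mice with LPS. These groups did not overlap, by a margin of under 1 unit, and differed by 0.46 ± 0.17 (95% interval 0.10 to 0.83, adjusted p = 0.0638). This difference passed in 5 of 31 other settings (0.0378 to 0.142), among them without wild type LPS mouse 5 or wild type vehicle mouse 1 or 3. With vehicle it had 48.1 to 70.9 units in MCAD-/- mice and 38.2 to 76.3 units in wild type mice. LPS differences were 0.16 ± 0.17 in MCAD-/- and -0.16 ± 0.17 in wild type, each with an adjusted p of 0.422.

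**Figure D3:**
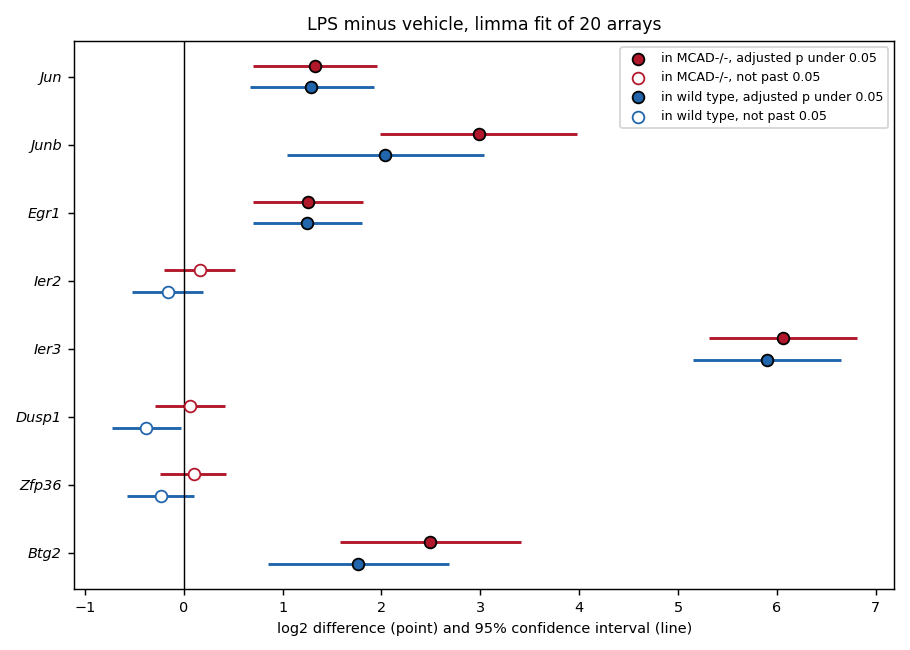
Difference between LPS and vehicle in the 8 tested members, as log2 points with 95% confidence intervals from the limma model, in MCAD-/- (red) and wild type liver (blue); filled points have an adjusted p under 0.05. Jun, Junb, Egr1, Ier3 and Btg2 are filled in both genotypes, and Ier2, Dusp1 and Zfp36 lie between -0.38 and 0.16. The Ier3 points of 6.06 and 5.90 rest on vehicle values under 16 units. The filter on low values had already required Ier3 to be bright with LPS, so its filled points are not read as a test.

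The group means of all 10 members, the untested ones included, were higher in MCAD-/- than in wild type liver with LPS, as were 46.36% of all tested genes. With vehicle 8 of 10 were higher, as were 55.46% of all tested genes. The members' median difference was 0.52 with LPS and 0.16 with vehicle, where the medians of all tested genes were -0.03 and 0.04. For LPS against vehicle, the means of 10 of 10 members were higher in MCAD-/- (median 1.17, all tested genes 0.14) and 7 of 10 in wild type (median 0.87, all tested genes 0.18). There were 5 members that had LPS-treated groups that did not overlap and were higher in MCAD-/-, namely Junb, Egr1, Ier2, Dusp1 and Btg2, as had 5.44% of all tested genes. The members were measured in the same mice and share regulators, so their directions are not separate observations.

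Whether LPS acted differently in the 2 genotypes was asked by the interaction, the LPS difference in MCAD-/- minus that in wild type. No tested member passed in limma, where 4.11% of all tested genes passed (33.0% of these higher, 44.4% when arrays were centred), and 0 members had an unadjusted p under 0.05. Dusp1 had the smallest unadjusted p (0.0775), at 0.44 ± 0.24 (95% interval -0.05 to 0.94, adjusted p = 0.314). The intervals were wide for Btg2 (0.73, -0.57 to 2.03) and Junb (0.95, -0.46 to 2.36), and narrower for Egr1 (0.00, -0.78 to 0.79). The larger LPS response of Btg2 and Junb in MCAD-/- was thus not distinguished from that in wild type.

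The mice of 1 group differed from each other, and several members were high in the same mouse. Wild type vehicle mouse 1 was above its group mean in 8 of 8 tested members and among the 2 highest in all 8, with a mean deviation of 0.73 on the log2 scale. Wild type vehicle mouse 5 was above the mean in 7 of 8 (mean deviation 0.41), while mouse 2 was above it in none (-0.42) and mouse 4 in 1 (-0.56). With LPS, wild type mouse 3 was above its group mean in 7 of 8 and MCAD-/- mouse 2 in none. The widest spread was that of Junb and Btg2 in wild type vehicle mice, with SDs of 1.52 and 1.23 on the log2 scale (n = 5 each). Neither wild type vehicle mouse 1 nor mouse 5 stood out in the actin ratio, at 2.13 and 1.79. Wild type vehicle mouse 1 was also highest of its group in inflammatory and neutrophil genes, with 2577 units of Cxcl1 (290 to 1323 in the other 4 mice), 2330 units of Lcn2 (727 to 1428), 45.5 units of S100a8 (4.30 to 12.9) and 37.7 units of S100a9 (6.84 to 21.4). MCAD-/- vehicle mouse 5 was likewise highest of its group in these genes, with 2794 units of Lcn2 (61.2 to 180 in the others) and 83.5 units of S100a8 (4.55 to 8.13). Yet that mouse was above its group mean in 3 of 8 members, with a mean deviation of -0.06. Il1b, under 16 units in all vehicle mice, was lowest of its group in wild type vehicle mouse 1 (4.27 units). The part of these genes in the member levels of either mouse was not tested. Without wild type vehicle mouse 1, the vehicle comparison between genotypes called 2 members, Dusp1 and Btg2, and without mouse 5 it called 1, Btg2.

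**Figure D4:**
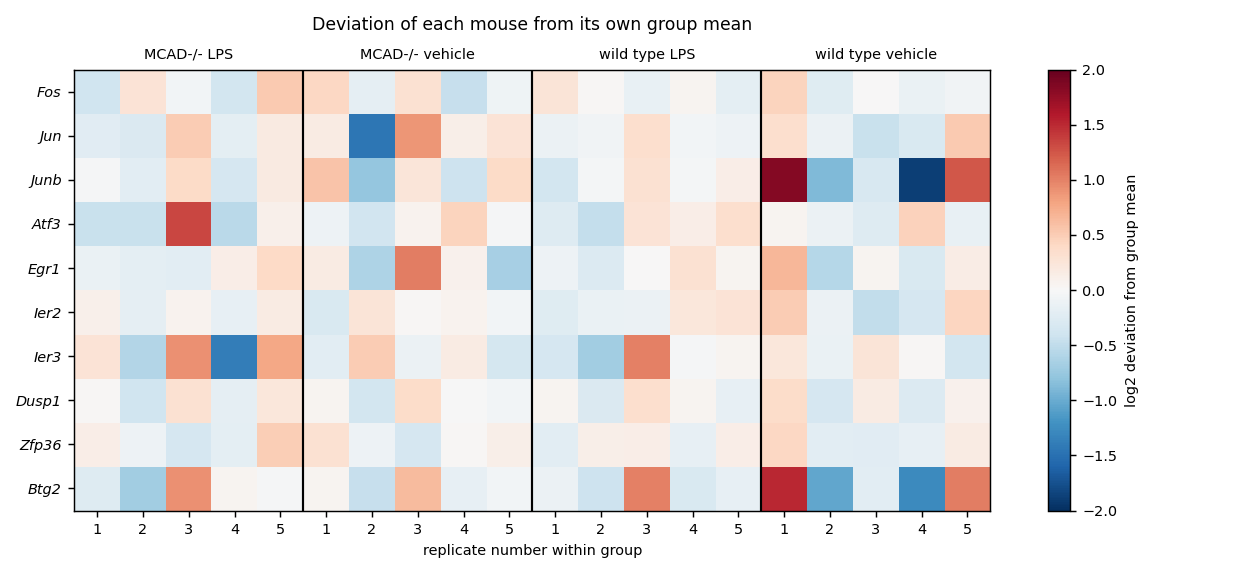
Deviation of each mouse from its own group mean (log2 colour scale, red above and blue below 0) for the 10 genes in 20 mice, columns numbered by mouse within each group. Wild type vehicle mice 1 and 5 are red across most rows, and mice 2 and 4 of that group blue. The darkest cells are Junb in wild type vehicle mice 4 (-1.88) and 1 (1.83) and Btg2 in mouse 1 (1.5).

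Cell type markers moved with some of these comparisons, and their part in the members' differences was not tested. Among all tested genes, 20.6% passed between genotypes with LPS (8.75% as higher) and 16.2% with vehicle (9.81% as higher). For LPS against vehicle 65.7% passed in MCAD-/- (38.1% as higher) and 64% in wild type (40% as higher), and 4.11% passed in the interaction. Between genotypes with LPS, of 11 tested liver endothelial markers 0 were higher and 2 lower in MCAD-/-, of 10 Kupffer cell and macrophage markers 0 passed, and of 4 neutrophil markers 1 (Ngp) was higher. The summed levels with LPS overlapped, at 806 to 1397 units in MCAD-/- and 980 to 1570 units in wild type for the endothelial list, 754 to 1503 units in MCAD-/- and 629.5 to 1387 units in wild type for the Kupffer list, and 2757 to 3289 units in MCAD-/- and 1882 to 3977 units in wild type for the neutrophil list. With vehicle, where Dusp1 was higher in MCAD-/-, 10 of 11 endothelial, 7 of 10 Kupffer and 5 of 10 stellate cell markers were higher too, and the endothelial sums were 1806 to 2570 units in MCAD-/- against 578 to 1248 units in wild type. The vehicle sums were 1906 to 2743 units in MCAD-/- against 1072 to 1913 units in wild type for the Kupffer list, and 2493 to 2738 units in MCAD-/- against 1366 to 2450 units in wild type for the stellate list. With LPS against vehicle, the 4 tested neutrophil markers were higher in both genotypes, at sums of 2757 to 3289 units with LPS against 50.4 to 226 units with vehicle in MCAD-/-, and 1882 to 3977 units with LPS against 54.6 to 127.5 units with vehicle in wild type. Of these, S100a8 and S100a9 passed the filter on low values only through the LPS groups, with medians of 6.45 to 12.06 units in the vehicle groups. The vehicle sums over all 10 neutrophil markers had medians of 59.92 units in MCAD-/- and 61.43 units in wild type, so Mmp8 and Ngp were low there too. The rise of the 4 markers, and their count, is thus a description and not a test. Of 8 hepatocyte markers 6 were lower with LPS in each genotype, and of 10 Kupffer cell markers 9 were lower and 1 (Marco) higher in MCAD-/-, against 6 lower and 1 higher in wild type. Of the 11 endothelial markers, LPS left 2 higher and 7 lower in MCAD-/-, against 5 higher and 1 lower in wild type, and 5 were lower in the interaction. The 10 stellate cell markers had 0 higher and 5 lower with LPS in MCAD-/-, against 2 higher and 2 lower in wild type, and Pdgfrb was lower in the interaction. Of 10 neutrophil markers on the arrays, 6 were under 16 units on all arrays: Cxcr2, Mpo, Elane, Csf3r, Camp and Ltf. So were 8 of 9 lymphocyte and 5 of 5 cholangiocyte markers.

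Of 22 other immediate early genes tested in a list of 31, 7 were higher and 0 lower in MCAD-/- with LPS, where 8.75% of all tested genes were higher. With vehicle 9 were higher and 1 (Gadd45b) lower, where 9.81% of all tested genes were higher. The medians were 0.47 with LPS and 0.35 with vehicle, where those of all tested genes were -0.03 and 0.04, and most of the 22 did not pass in the LPS comparison. Sgk1, a kinase induced by serum and glucocorticoids, was higher in MCAD-/- in both, at geometric means of 1033 against 623 units with LPS (log2 difference 0.73 ± 0.16, adjusted p = 0.00235) and 306.5 against 154 units with vehicle (1.00 ± 0.16, adjusted p = 0.000147). Gadd45g, a growth arrest and stress gene, was higher in MCAD-/- with vehicle (561 against 376.5 units, adjusted p = 0.0325) and not called with LPS (2603 against 1922 units, adjusted p = 0.09). LPS raised 12 of the 22 in MCAD-/- and 10 in wild type, where 38.1% and 40% of all tested genes were higher, and lowered Klf10 in both. Among those raised were Cebpd, a factor of the acute phase response, 1.42 and 1.11 on the log2 scale, and Ier5, which reached 91.4 units with LPS against 15.98 units with vehicle in MCAD-/- and 76.8 against 10.4 units in wild type. With vehicle, Ier5 read 11.79 to 18.11 units in MCAD-/- mice and 8.63 to 12.25 in wild type mice. It passed the filter on low values through the LPS groups. Its LPS rise, and the counts that hold it, are thus descriptions and not tests. The vehicle count of 9 also holds Ier5, at these low values.

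Of 11 other tested AP-1 and CREB/ATF subunits, Fosl2 and Crem were higher and Atf5 lower in MCAD-/- with LPS. Fosl2, a Fos relative, averaged 88.6 units in MCAD-/- and 58.5 units in wild type mice with LPS (log2 difference 0.60 ± 0.18, adjusted p = 0.0232). Crem, whose short isoforms repress CRE-driven transcription, averaged 419 and 230.4 units (0.86 ± 0.27, adjusted p = 0.0305). Atf5, a stress factor, averaged 778 and 1250 units (-0.68 ± 0.17, adjusted p = 0.00828). With vehicle 1 of the 11, Jdp2, was higher, and LPS raised 7 in each genotype and lowered Atf6 in both and Mafg in MCAD-/-. Those that rose included Atf4, which rose 2.22-fold in MCAD-/- and 2.11-fold in wild type. Among all tested genes, LPS raised 38.1% in MCAD-/- and 40% in wild type. Between genotypes 20.6% passed with LPS (8.75% as higher) and 16.2% with vehicle (9.81% as higher).

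Of 15 tested MAP kinases and upstream kinases 1 (Map3k1) was higher and 0 lower in MCAD-/- with LPS, and 1 (Mapkapk2) was higher and 1 (Map2k3) lower with vehicle. Of 7 genes for serum response factor, ternary complex factors and coactivators 0 passed between genotypes with LPS, and 3 (Elk3, Mrtfb and Crtc2) were higher in MCAD-/- with vehicle. Elk3, a ternary complex factor, also passed the interaction (-1.36 ± 0.36, adjusted p = 0.0342), though it averaged 18.7 units with LPS and 14.7 with vehicle in MCAD-/-, and 21.6 with LPS and 6.65 with vehicle in wild type, near or under the limit of 16 units. LPS lowered Map3k5, a stress-activated kinase, to 86.2 units in MCAD-/- and 97.6 units in wild type, against 309 and 290.4 units with vehicle (adjusted p = 1.26e-10 and 1.42e-09). It raised Rps6ka3, a kinase below ERK, 1.43 and 1.14 on the log2 scale in MCAD-/- and wild type. Of 11 other MAP kinase phosphatases 3 could be tested: none of Dusp3, Dusp6 and Dusp16 differed past the threshold with LPS between genotypes, and Dusp3 was higher in MCAD-/- with vehicle (181 against 123 units, adjusted p = 0.0251). Beside these lists, 20.6% of all tested genes passed between genotypes with LPS (8.75% as higher) and 16.2% with vehicle (9.81% as higher).

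Of 17 tested genes of the BTG/TOB family, the tristetraprolin family and the CCR4-NOT complex, 2 were higher (Cnot7 and Pan3) and 2 lower (Zfp36l2 and Cnot8) in MCAD-/- with LPS. In that comparison 20.6% of all tested genes passed, 8.75% as higher. Zfp36l2, a relative of Zfp36, thus ran opposite to it, at 102.5 units in MCAD-/- and 158 units in wild type (log2 difference -0.63 ± 0.19, adjusted p = 0.0255), and LPS lowered it in both genotypes (-1.63 and -0.91). Pan3, a deadenylase subunit, was higher in MCAD-/- with LPS (61.9 against 39.7 units, adjusted p = 0.000168) and with vehicle (63.7 against 40.7 units, adjusted p = 0.000184). Of 13 transcripts that tristetraprolin is known to bind 2 could be tested, Il1b and Cxcl1, and neither differed past the threshold between genotypes with LPS. Cxcl1, a neutrophil chemokine, was lower in MCAD-/- with vehicle (189 against 814 units, adjusted p = 0.0155), and Il1b read under 25 units as a mean in every group.

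Btg2 is also a target of p53, and Dusp1 is induced by glucocorticoids. Whether either had a part in the differences of Btg2 and Dusp1 was not tested. Of all tested genes, 20.6% passed between genotypes with LPS (8.75% as higher) and 16.2% with vehicle (9.81% as higher). LPS raised 38.1% of all tested genes in MCAD-/- and 40% in wild type. Of 10 tested p53 targets 0 were higher and 3 lower in MCAD-/- with LPS: Ccng1 (409 against 740 units, log2 difference -0.85 ± 0.15, adjusted p = 0.000337), Phlda3 (19.8 against 90.7 units) and Zmat3 (31.1 against 54.2 units). LPS raised 6 of them in MCAD-/- and 8 in wild type and lowered 1 (Sesn1) in MCAD-/-, and Cdkn1a, a cell cycle inhibitor, rose by 4.61 in MCAD-/- and 4.72 in wild type on the log2 scale. With vehicle, Phlda3 read at most 12.25 units in MCAD-/- and 9.04 in wild type, and Zmat3 at most 19.2 and 16.94. Both passed the filter on low values through the LPS groups. Their LPS rises, and the counts that hold them, are thus descriptions and not tests. In MCAD-/- mice with LPS Phlda3 read 12.89 to 32.83 units, so its genotype difference rests on values near the limit. Of 13 glucocorticoid-induced genes 4 were higher and 0 lower in MCAD-/- with LPS (Per1, Sgk1, Tat and Errfi1), and 4 were higher and 1, Lcn2, lower with vehicle. Per1 and Sgk1 also stand in the list of immediate early genes and Cdkn1a in both of these, so the counts share genes.

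The tested genes whose level followed each member most closely over the 20 mice were found by the root mean square difference of log2 values, each gene centred on its own mean. Socs3, an inhibitor of cytokine signalling, was nearest to Junb (0.52), and it had 564.5, 137, 157, 145 and 274 units in wild type vehicle mice 1 to 5, also highest in mice 1 and 5. The closest to Dusp1 was the amino acid transporter gene Slc38a2 (0.26), at geometric means of 3069 and 2488 units in MCAD-/- mice with LPS and with vehicle, and of 1440 and 1614 units in wild type mice. Btg2 had no gene closer than 0.70 (Piga and Ncf4), while its own spread about its mean was 1.51. The remaining nearest genes were Impact for Jun (0.35), Leprot for Egr1 (0.36), Slc10a6 for Ier3 (0.42), Hnrnpul1 for Ier2 (0.18) and Slc17a2 for Zfp36 (0.19). The own spread was 0.31 for Ier2, 0.29 for Zfp36, 0.47 for Dusp1, 0.80 for Egr1 and 0.81 for Jun. It was 1.49 for Junb and 3.04 for Ier3. A small distance can thus come from a member that varied little. Among the members themselves, Jun and Egr1 lay 0.44 apart, and Junb and Btg2 0.76 apart.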

How the data were processed

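Liver RNA of 20 mice was hybridised to Affymetrix single-channel arrays. The authors deposited 1 intensity per probe set on a linear scale, made with GCRMA per the submitters' processing notes. GCRMA removes background, brings arrays to a common distribution and condenses the probes of a set into 1 value; the version is not stated by any source read here. A shift of all transcripts together would not be visible. Groups and mouse numbers came from the sample labels, and the series text calls the mice biological replicates.

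Log2 values were taken with no pseudocount. Of 45101 probe sets, 64 were controls, 34945 had 1 gene symbol in the platform annotation, 932 had several, and 9160 were not listed there. RefSeq (GRCm38.p6) held the gene ID of 34741 of the 34945 and changed 0 symbols. The brightest probe set stood for each of 18193 genes, and the 8774 genes over 16 units on at least 5 arrays were tested. One model with 4 group means was fitted with limma 3.58.1 in R 4.3.3 (lmFit and eBayes, 16 residual degrees of freedom), with Benjamini-Hochberg adjustment over all 8774 genes, two-sided. Folds against a group with every mouse under 16 units are bounds, taken against 16 units. Precision is limited by the number of arrays per group. The fit was tested on simulated data. The alternatives tried are given in the closing section.

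The members and the other gene lists were chosen with earlier results of these data known, so their counts are descriptions. Named beside the members are up to 4 genes per signalling list with the smallest adjusted p over the 5 comparisons, and, for each member, the genes with the nearest pattern over the 20 arrays. Genes outside this rule are named where a count was small and were chosen after their values were seen.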

Additional observations from a re-analysis of the deposited data

Results flagged for a closer look

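For each of the 10 genes and 4 groups, the mouse farthest from its group was checked by the gap to its nearest neighbour as a share of the group's range, against Dixon's critical value of 0.71 for 5 values. Of 40 groups of values, 2 exceeded it, and chance flags about 1 in 20 such groups. Both were wild type LPS mouse 3. Jun stood at 274.8 units there, with 199.3 to 210.6 units in the other wild type mice with LPS. Btg2 stood at 438.8 units there, with 163.9 to 203.6 units in the others. Without this mouse, the difference of Btg2 between MCAD-/- and wild type with LPS was 2.22 on the log2 scale (limma adjusted p = 0.00165), and Dusp1 and Btg2 were the members called in that comparison.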

How the results depend on the processing

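Btg2 and Dusp1 were called between genotypes with LPS in 31 of 31 alternatives, with adjusted p-values of at most 0.0302 and 0.00242, and Jun, Junb, Egr1 and Btg2 were called for LPS in both genotypes in 31 of 31. With LPS, the count of members higher in MCAD-/- was 3, or 5 in a fit of the compared groups alone (Junb, Egr1, Ier2, Dusp1 and Btg2), 2 with no filter and with every probe set on its own (Zfp36 lost in both), 4 with each array centred (Ier2 added) and 2 to 4 with 1 mouse left out. With vehicle it was 1, or 2 with the replicate block, 2 with probe sets averaged per gene, 0 with each array centred, 3 with array weights, and 0 to 2 with 1 mouse left out. The LPS counts with 1 mouse left out were 5 in MCAD-/- and 5 to 6 in wild type. They include Ier3, which the filter on low values had already required to be bright with LPS. Among the other alternatives the MCAD-/- count was 7 with no filter, and the wild type count was 7 with arrays centred and 6 with the replicate block, no filter, further quantile normalization and a trended prior. These LPS counts hold both directions. Wild type counts over 5 held Dusp1 as lower, except with no filter, and centring added Zfp36 as lower. With no filter, Fos was added as higher in both genotypes and Atf3 in MCAD-/-. The interaction count was 0 in every alternative run.

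Differences that changed sign were near 0 in the main fit, from -0.12 (Junb between genotypes with vehicle) to 0.16 (Ier3 in the interaction), though some lay further from 0 in an alternative. For Dusp1 with LPS in MCAD-/- the value was -0.03 with arrays centred and -0.05 with array weights, and the interaction with array weights was -0.11 for Egr1 and -0.14 for Ier3. With 1 mouse left out, the ranges were -0.59 to 0.33 for Junb between genotypes with vehicle, -0.32 to 0.26 for Jun and -0.16 to 0.26 for Egr1 in the interaction, -0.03 to 0.16 for Dusp1 and -0.02 to 0.18 for Zfp36 with LPS in MCAD-/-, and -0.07 to 0.51 for Ier3 in the interaction. The causes were not tested. Of single-gene values, 27 reversed, 24 newly passed, 23 no longer passed and 1168 did neither.

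With no filter, where Fos and Atf3 enter below 16 units, Fos was higher with LPS in MCAD-/- (adjusted p = 6.11e-05) and in wild type (adjusted p = 0.0422), and Atf3 in MCAD-/- (adjusted p = 0.01). Mouse numbers are shared between groups in the labels, but 5 of 20 same-numbered pairs deviated together at r over 0.1 (range -0.12 to 0.28), so the numbers were not taken to pair mice. The replicate block moved the vehicle count as given and called Dusp1 lower with LPS in wild type (adjusted p = 0.00596). Signal over background limits what can be said of Fos and Atf3, and 5 mice per group what can be said of the interaction.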
